A study of Mus musculus with 79 samples.

Results

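Monoamine neurons were described here through 10 genes, which make, package, recapture and break down dopamine, noradrenaline and serotonin. The 10 were chosen by symbol, for their roles, and all 10 were found among the 25965 genes of the hypothalamic expression table. They comprise the synthesis enzymes Th, Ddc, Dbh and Tph2, the vesicular transporter Slc18a2, the reuptake transporters Slc6a3, Slc6a2 and Slc6a4, and the monoamine oxidases Maoa and Maob.

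The tissue was whole hypothalamus from mice of about 14 weeks, from a line targeted in C57BL/6 cells and crossed to C57BL/6Babr. In the +/+ group both Dnmt3a alleles were intact, and in the Δ/D329A group the maternal allele lacked exon 18 (Δ, deleted in the oocyte with Zp3-Cre) while the paternal allele, the only functional one, carried a substitution in the PWWP domain (D329A), with which DNMT3A binds methylated histone H3. Neither heterozygous genotype is in the tables used here, so loss of 1 allele and the substitution on the other cannot be told apart. RNA-seq covered 5 +/+ and 4 Δ/D329A animals with 1 library each, and native ChIP-seq on micrococcal nuclease digests covered 3 animals of each genotype, each with an input, an H3K4me3, an H3K27me3 and an H3K36me3 library. Each is a mark of histone H3, where H3K4me3 marks active starts of genes, H3K27me3 is the mark of Polycomb repression, and H3K36me3 marks the bodies of transcribed genes.

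The RPKM scaling totals ran from 10519195 to 18386073 reads per RNA library, and the ChIP libraries held 12676361 to 30207875 reads. Dnmt3a stood at 3.28 to 4.31 RPKM in +/+ and 2.84 to 3.30 RPKM in Δ/D329A, a log2 difference of −0.28 (SE 0.13, limma adjusted p = 0.355). A substitution and a deletion of 1 exon on 1 allele leave most reads of the gene in place, so this level does not check the genotype. The sources give the RNA animals as female and the ChIP animals as male. Xist, the RNA of the inactive X chromosome, stood at 13.9 to 24.05 RPKM in all 9 RNA libraries, and input coverage of X-linked gene bodies in ChIP was 0.410 to 0.426 of that on autosomes. Every value of RNA set beside a mark therefore crosses the sexes. The Δ/D329A replicate 1 H3K4me3 library stood apart, with a median tile value of 0.314 RPM (reads of a tile scaled to library size) against 0.0789 to 0.20 in the other 5.

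Dopamine and noradrenaline arise from tyrosine, and tyrosine hydroxylase, the product of Th, carries out the first and limiting step. Aromatic amino acid decarboxylase (Ddc) then gives dopamine, dopamine beta-hydroxylase (Dbh) turns that into noradrenaline, and tryptophan hydroxylase 2 (Tph2) starts serotonin synthesis in neurons. VMAT2 (Slc18a2) loads all these amines into vesicles, while DAT (Slc6a3), NET (Slc6a2) and SERT (Slc6a4) take dopamine, noradrenaline and serotonin back into the neuron that released them. The hypothalamus holds its own dopamine neurons, among them those of the arcuate nucleus that restrain prolactin, whereas the noradrenaline and serotonin that reach it come from fibres of brainstem neurons whose cell bodies, and so most of whose RNA, lie elsewhere.

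The upstream sequences of the genes on which the chromatin results turn are given first, because the DNA at these starts differed in its content of CpG, the dinucleotide that DNMT3A methylates. Each run covers 250 bases up to the base before a transcript start in RefSeq (GRCm38.p6), 5′ to 3′ on the strand of the gene. At Slc6a3 this is the deposited start, 619 bp inside the RefSeq gene, and elsewhere in the text the RefSeq start is the outer end of the RefSeq gene. CpG dinucleotides are in capitals, except for Th, where the capitals mark a cyclic AMP response element (TGACGTCA).
Slc6a3, chr13:73536497-73536746, plus strand: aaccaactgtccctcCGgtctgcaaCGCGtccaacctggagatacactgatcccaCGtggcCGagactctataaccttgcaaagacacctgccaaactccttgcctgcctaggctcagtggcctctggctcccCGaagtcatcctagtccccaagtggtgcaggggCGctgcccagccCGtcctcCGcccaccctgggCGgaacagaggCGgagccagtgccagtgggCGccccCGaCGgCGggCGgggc
Slc6a4, chr11:76998347-76998596, plus strand: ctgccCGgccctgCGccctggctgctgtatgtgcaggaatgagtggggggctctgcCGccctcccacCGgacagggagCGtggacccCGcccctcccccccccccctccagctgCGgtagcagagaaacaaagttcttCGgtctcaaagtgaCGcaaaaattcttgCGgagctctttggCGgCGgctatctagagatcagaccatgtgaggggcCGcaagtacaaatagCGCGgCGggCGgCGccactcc
Slc18a2, chr19:59260628-59260877, plus strand: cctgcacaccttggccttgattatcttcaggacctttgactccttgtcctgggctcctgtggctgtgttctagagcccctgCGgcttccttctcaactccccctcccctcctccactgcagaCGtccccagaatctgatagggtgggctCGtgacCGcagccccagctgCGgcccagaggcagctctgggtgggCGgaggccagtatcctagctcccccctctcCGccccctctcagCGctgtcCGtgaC
Ddc, first start, chr11:11898145-11898394, minus strand: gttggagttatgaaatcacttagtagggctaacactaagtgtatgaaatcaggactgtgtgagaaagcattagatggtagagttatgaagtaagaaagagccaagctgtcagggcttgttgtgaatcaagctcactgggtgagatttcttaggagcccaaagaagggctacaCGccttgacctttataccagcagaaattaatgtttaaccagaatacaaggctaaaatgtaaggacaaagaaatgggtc
Ddc, second start, chr11:11890409-11890658, minus strand: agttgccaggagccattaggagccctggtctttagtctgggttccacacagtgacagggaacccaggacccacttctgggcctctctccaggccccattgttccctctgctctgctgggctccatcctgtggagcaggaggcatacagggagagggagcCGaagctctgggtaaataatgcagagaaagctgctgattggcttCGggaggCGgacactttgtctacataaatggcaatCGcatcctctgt
Th, chr7:142899996-142900245, minus strand: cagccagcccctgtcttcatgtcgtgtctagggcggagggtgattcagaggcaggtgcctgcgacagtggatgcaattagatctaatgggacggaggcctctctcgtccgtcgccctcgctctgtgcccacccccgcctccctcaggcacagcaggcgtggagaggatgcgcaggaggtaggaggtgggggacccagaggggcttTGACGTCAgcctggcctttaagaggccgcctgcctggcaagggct

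Slc6a4 carried 28 CpG and Slc6a3 carried 20 CpG in the 300 bases around the start, of which 250 lie before it. The quartiles over 32851 mouse promoters of that length were 3, 7 and 20, so both transporters were at or above the upper quartile. Th had 15, Maoa 14 and Slc18a2 12 CpG, Tph2 had 9, and Dbh and the first start of Ddc had only 2. The second start of Ddc, 7736 bp into the gene, had 5. Sequences were found for 8 of the 10 genes, and those of Slc6a2 and Maob are named only.

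The full cyclic AMP response element, searched on both strands, was found 45 bases before the start of Th and again across the start of Slc18a2, beginning 4 bases before it. It occurred in 1.79% of all promoters. The 4 bases of the Slc18a2 element that lie before the start close its printed run, in which the last capital is the C of a CpG that spans the start. The first start of Ddc held the motif AAAGGTCA, present in 1.51% of promoters, and TATAAA, present in 13.6%. Both lay on the strand opposite to the gene, where they overlap, and so appear reversed in the printed run. On the strand of the gene, TATAAA lay 30 bases before the start of Tph2. These are matches of letters, and no factor was measured.

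Expression was compared first, to learn whether the machinery of monoamine neurons differed in RNA between the genotypes. Values are RPKM, reads per kilobase of exon scaled to library size, which allow levels of different genes to be compared. Of the 10 genes, 7 reached 0.1 RPKM in at least 4 libraries and were tested, and 0 were called by limma at an adjusted p under 0.01. Over all 17839 genes tested 0.107% were called, 15 higher and 4 lower, with 1360 at an unadjusted p under 0.05. The paper compared these groups with DESeq at a corrected p under 0.01. DESeq2 on reads recovered from the deposited values called 249 of 16160 genes at that limit, Th and Maob among them. None of the 7 had Δ/D329A libraries that all lay above or all below the +/+ libraries, against 3.0% of all genes tested. In whole tissue, fewer cells of a type and less RNA per cell cannot be told apart.

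In +/+ hypothalamus the 10 genes fell into 2 tiers, with Maoa, Maob, Th, Slc18a2, Ddc and Slc6a3 each at 0.454 RPKM or more in every library and Tph2, Dbh, Slc6a4 and Slc6a2 at 0.121 RPKM or less. The order of mean level was Maoa, Maob, Th, Slc18a2, Ddc, Slc6a3, Tph2, Dbh, Slc6a4 and Slc6a2. Among neighbours in that order, only Slc6a3 and Tph2 had ranges that did not overlap, and all other neighbours shared part of their ranges. On the log2 scale Slc6a3 lay 4.91 ± 0.94 (SD, n = 5) above Tph2 within libraries.

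**Figure D1:**
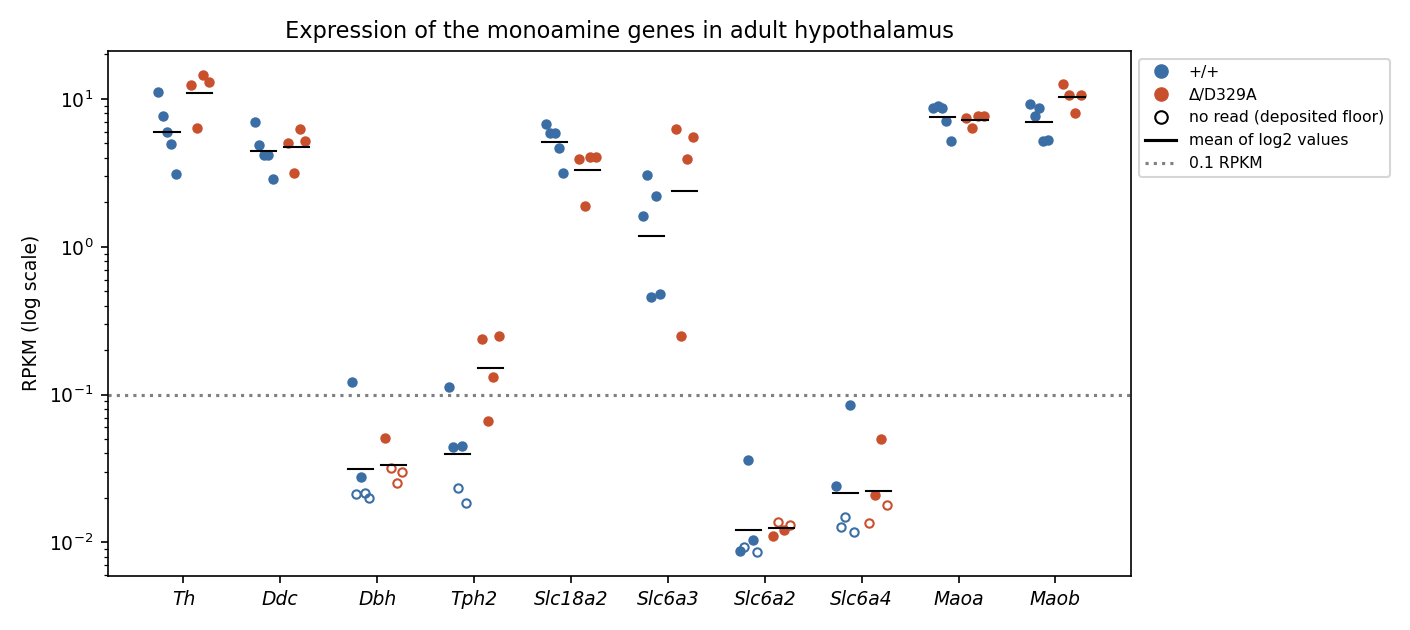
RPKM, on a log axis, of the 10 genes in each of the 5 +/+ and 4 Δ/D329A libraries, with points for libraries, open circles where a library held no read of the gene, bars at the genotype means of log2 values and a dotted line at 0.1 RPKM. The genotypes overlap for every gene, and in +/+ Dbh, Slc6a2, Slc6a4 and Tph2 sit below the other 6 in every library.

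Th, on chromosome 7 from 142892752 to 142931128 on the minus strand in the deposited annotation, read 11.1, 7.71, 5.94, 4.99 and 3.11 RPKM in +/+ replicates 1 to 5. In Δ/D329A replicates 1 to 4 it read 12.5, 6.31, 14.6 and 13 RPKM. The values of 3 Δ/D329A libraries stood above every +/+ library, while replicate 2 lay within the +/+ range. The fold was 1.84 (95% interval 1.06 to 3.17), with a log2 difference of 0.88 (SE 0.36), a limma adjusted p of 0.355 and an exact two-sided permutation p of 0.0714, where 0.00794 is the smallest that 5 against 4 libraries allow. DESeq2 on the recovered reads did call Th (log2 difference 0.85, adjusted p = 0.00521), and edgeR did not (adjusted p = 0.0434), so the call depended on the tool.

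Ddc, on chromosome 11 from 11814101 to 11898144 on the minus strand, read 6.95, 4.87, 4.2, 4.19 and 2.86 RPKM in +/+ and 5.02, 3.15, 6.22 and 5.18 RPKM in Δ/D329A. The enzyme serves all 3 amines, and its 2 groups of libraries overlapped almost completely. The log2 difference was 0.10 (SE 0.26, limma adjusted p = 0.945). The interval on the fold ran from 0.718 to 1.60. Its gene overlaps 1700042O10Rik, and reads in the shared stretch may belong to either.

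Tph2 and Dbh, the enzymes of neurons whose cell bodies lie in the brainstem, were barely detected. Tph2 (chromosome 10, 115078641 to 115185022, minus strand) had 6, 2, 0, 2 and 0 reads in +/+ and 10, 2, 5 and 8 reads in Δ/D329A. Although 3 Δ/D329A libraries held more of it for their size than any +/+ library, a total of 10 reads against 25 carries little weight. The log2 difference was 1.92 (SE 0.54, limma adjusted p = 0.345, exact permutation p = 0.0397), and the ratio of summed reads, scaled by library, was 4.02 with a counting interval of 1.86 to 9.38. Tph2 reached 0.1 RPKM only in Δ/D329A replicates 1, 3 and 4 and in +/+ replicate 1. It was thus tested through the group where it was high, and its p values are no support for a difference. Dbh (chromosome 2, 27165233 to 27183200, plus strand) had 7 reads over the 5 +/+ libraries, 6 of them in replicate 1, and 2 reads over Δ/D329A, which gives a ratio of 0.459 (0.0465 to 2.41).

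Slc6a3, on chromosome 13 from 73536747 to 73578672 on the plus strand, was the most uneven of the 7 tested genes, with a span of 25.2-fold between its highest and lowest library. It read 1.62, 3.05, 0.454, 2.22 and 0.481 RPKM in +/+ and 6.23, 0.248, 3.92 and 5.49 RPKM in Δ/D329A. Both the 3 highest libraries and the very lowest, Δ/D329A replicate 2 with 9 reads, came from the mutant group. The log2 difference was 1.01 (SE 0.95, limma adjusted p = 0.755), and without Δ/D329A replicate 2 it was 2.1 (adjusted p = 0.491).

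Slc18a2 (chromosome 19, 59260878 to 59296012, plus strand) pointed the other way. It read 6.76, 5.89, 5.91, 4.68 and 3.14 RPKM in +/+ and 3.92, 1.87, 4.08 and 4.06 RPKM in Δ/D329A. The group ranges overlapped through +/+ replicate 5, and Δ/D329A replicate 2 was again lowest. The log2 difference was −0.62 (SE 0.29, limma adjusted p = 0.355), and it was −0.34 (adjusted p = 0.658) without Δ/D329A replicate 2. DESeq2 on the recovered reads gave an adjusted p of 0.0196, above the 0.01 used for expression.

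The other 2 reuptake transporters were close to absent. Slc6a2 (chromosome 8, 92960079 to 93001667, plus strand) had 5 reads over all +/+ libraries and 2 over all Δ/D329A libraries, for a ratio of 0.643 (0.0612 to 3.93). Slc6a4 (chromosome 11, 76998603 to 77032340, plus strand) had 8 and 4 reads, for a ratio of 0.804 (0.177 to 3.0). The intervals cover counting error only, and at this depth neither transporter could show even a large difference. Slc6a4 overlaps Gm12343, so some of its few reads may be shared.

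Maoa was the most evenly expressed of the 7 tested genes, with a span of 1.72-fold over the libraries. The gene (X chromosome, 16619698 to 16687818, plus strand), whose enzyme prefers serotonin and noradrenaline, read 8.75, 8.98, 8.75, 7.12 and 5.21 RPKM in +/+ and 7.39, 6.37, 7.67 and 7.61 RPKM in Δ/D329A. Maob (X chromosome, 16709282 to 16817366, minus strand), an enzyme of astrocytes and serotonin neurons, read 9.26, 7.61, 8.63, 5.23 and 5.28 RPKM in +/+ and 12.7, 10.6, 7.99 and 10.7 RPKM in Δ/D329A. Maoa lay within the +/+ range in every Δ/D329A library, whereas Maob exceeded every +/+ library in 3 of 4. The log2 difference was −0.07 (SE 0.18, limma adjusted p = 0.941) for Maoa and 0.56 (SE 0.21, limma adjusted p = 0.355, exact permutation p = 0.0556) for Maob. DESeq2 called Maob (adjusted p = 0.00859) and edgeR did not (adjusted p = 0.0441). Astrocyte markers, read beside Maob, were tested for 8 of 8 genes with 0 called, at sums of 209 to 309 RPKM in +/+ and 205 to 296 RPKM in Δ/D329A. Maoa and Maob lie tail to tail, 21463 bp apart.

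Because the hypothalamus borders the dopamine cell groups of the ventral midbrain, markers of midbrain dopamine neurons were read in the same libraries. Of 10 such markers 8 were tested and 0 were called. Their summed level ran from 12.3 to 25.8 RPKM in +/+ and from 14.4 to 29.9 RPKM in Δ/D329A. Most of this sum was Aldh1a1, at 9.36 to 19.9 RPKM in +/+ and 10.8 to 22.2 RPKM in Δ/D329A, so it mainly follows that gene. The lowest value of all 9 libraries fell in +/+ replicate 5 for 4 of the 8 tested markers. It fell in Δ/D329A replicate 2 for the other 4. These values were not centred by library. The median over tested genes was 0.805 log2 RPKM in +/+ replicate 5, the lowest of the 9, and 0.906 in Δ/D329A replicate 2. Slc6a3 was at 0.481 and 0.248 RPKM in these libraries, and it was as low, at 0.454 RPKM, in +/+ replicate 3, whose marker sum was 20.8 RPKM. Aldh1a1 gave 15.2 RPKM of that sum.

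Pitx3, a defining factor of midbrain dopamine neurons, stood at no more than 0.114 RPKM in any library. En1, another, stood at 0.209, 0.211 and 0.206 RPKM in Δ/D329A replicates 1, 3 and 4, at 0.0242 RPKM in Δ/D329A replicate 2 and at no more than 0.0651 RPKM in +/+. Its relative En2 read 0.535, 0.468 and 0.487 RPKM in the same 3 libraries, 0.114 in Δ/D329A replicate 2 and 0.03 to 0.155 in +/+ (log2 difference 2.29, SE 0.55, limma adjusted p = 0.234). En2 too was tested only through the Δ/D329A libraries, since +/+ replicate 4 was the only +/+ library at the limit. En1 and En2, which mark midbrain and anterior hindbrain and were picked after their values were seen, were thus high in the 3 libraries in which Slc6a3, Th and Tph2 were highest. By uncentred value, the tested midbrain markers were not all highest in those 3 libraries. Lmx1a, Lmx1b, Foxa1 and Ret were highest in +/+ replicate 1, where the median over tested genes was also highest, at 1.49 log2 RPKM. Chrna6 and Aldh1a1 were highest in Δ/D329A replicate 1, and Chrnb3 and Slc10a4 in Δ/D329A replicate 4. The markers were also correlated with Slc6a3, after centring each library on its median and each genotype on its mean. Pearson r over 9 libraries was 0.87 for Aldh1a1, 0.79 for Chrna6, 0.76 for Lmx1a and for Chrnb3, and 0.72 for Slc10a4. It was 0.54 for Ret, 0.15 for Foxa1 and −0.01 for Lmx1b. With Th, r ran from 0.21 for Slc10a4 to 0.89 for Chrna6. These are given as a description. Differences between the genotypes were positive for 5 of the 8 tested midbrain markers, with a median log2 difference of 0.15. What part midbrain or hindbrain tissue plays in the differences of Th, Slc6a3 and Tph2 was not tested.

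**Figure D2:**
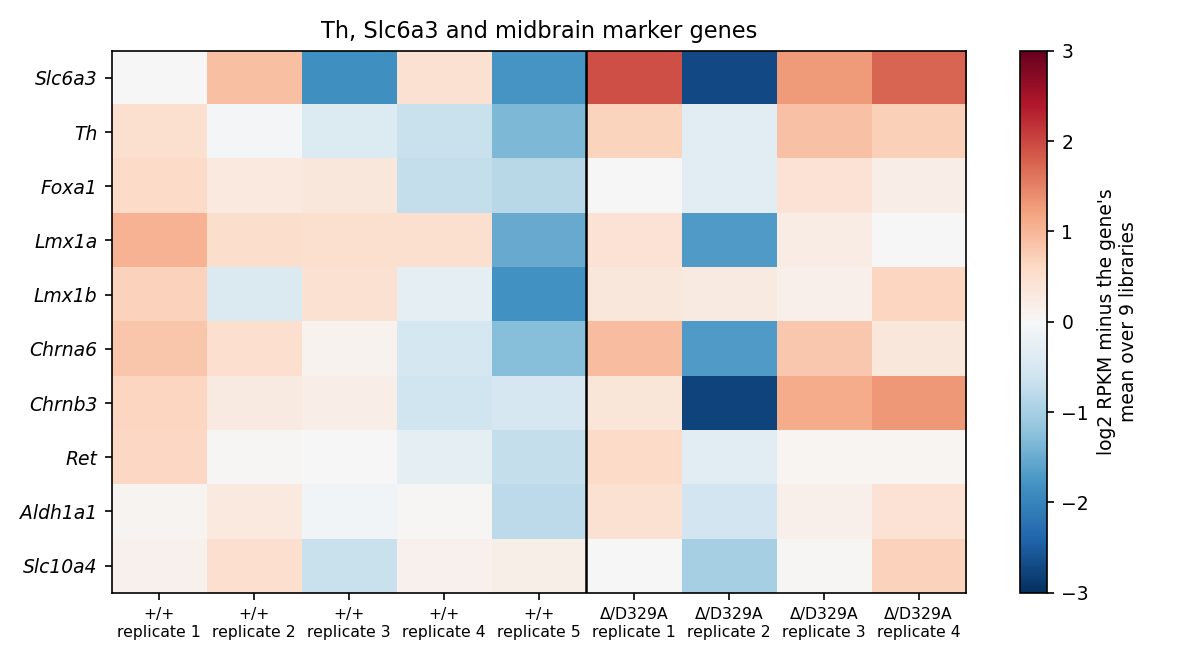
Heatmap of log2 RPKM minus the mean of the gene over 9 libraries for Slc6a3, Th and the 8 tested midbrain dopamine markers (rows) in each library (columns, +/+ left of the line, Δ/D329A right). Slc6a3 spans the widest range of colours, and the columns of +/+ replicate 5 and Δ/D329A replicate 2 are blue for most markers. Libraries are not centred on their medians.

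Markers of brainstem sources were scarce. Of 8 serotonin neuron markers 5 were tested, 0 were called, and the sum was 0.926 to 1.62 RPKM in +/+ and 1.36 to 2.31 RPKM in Δ/D329A, while the defining factor Fev stood at no more than 0.0529 RPKM. Of 5 noradrenergic markers 0 reached the limit for testing, and their sum was 0.0931 to 0.191 RPKM in +/+ and 0.119 to 0.176 RPKM in Δ/D329A. Hypothalamic neuron markers, by contrast, were all tested (20 of 20), at sums of 444 to 928 RPKM in +/+ and 501 to 722 RPKM in Δ/D329A. Of these 20 markers 0 were called, 8 had a positive difference, and the median log2 difference was −0.06. In 1 of the 20 the genotypes did not overlap, with lower values in Δ/D329A, against 3.0% of all genes tested. In these libraries the label hypothalamus was matched by abundant hypothalamic transcripts.

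The rest of the monoamine pathway was read from 7 lists holding 76 genes, of which 56 were tested and 0 were called. Differences were positive for 34 of the 56, with a median log2 difference of 0.15, and over all genes tested the median was 0.06, with 59.6% positive. Among the other enzymes and carriers 8 of 13 were tested, and Aldh1a1, an aldehyde dehydrogenase of dopamine neurons, was the highest, at 9.36 to 19.9 RPKM in +/+ and 10.8 to 22.2 RPKM in Δ/D329A. All 8 genes of tetrahydrobiopterin, the cofactor of both hydroxylases, were tested, led by the reductase Qdpr (15.0 to 23.4 against 14.8 to 23.7 RPKM, log2 difference −0.02, SE 0.18, limma adjusted p = 0.988).

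Receptors of the amines were likewise uncalled. Tests were made for 3 of 5 dopamine, 12 of 14 serotonin, 8 of 9 adrenergic and 3 of 5 histamine and trace amine receptors, and the highest of each list were Drd2, Htr2c, Adra2a and Hrh3. The genotypes did not overlap for 2 of the 26 receptors tested, against 3.0% of all genes tested. The alpha-2 adrenergic receptor gene Adra2b read 0.209 to 0.447 RPKM in +/+ and 0.448 to 1.02 RPKM in Δ/D329A (log2 difference 0.80, SE 0.31, limma adjusted p = 0.355). Adra1a read 1.17 to 1.68 and 0.805 to 1.12 RPKM (log2 difference −0.38, SE 0.18, limma adjusted p = 0.355).

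Of 22 transcription factors of monoamine neurons 14 were tested, and Otp, needed for neuroendocrine neurons, was the highest. The genotypes did not overlap for Onecut2, which read 1.59 to 2.20 RPKM in +/+ and 2.83 to 3.46 RPKM in Δ/D329A (log2 difference 0.74, SE 0.15, limma adjusted p = 0.144).

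Likeness across libraries was measured by Pearson correlation of log2 RPKM over the 9 libraries, after centring each library on its median and each genotype on its mean. The genes most like Th were 2310016M24Rik (r = 0.97), Nubp1 (0.97) and Kctd3 (0.96), and those most like Ddc were Mblac1 (0.98), Gstt2 (0.98) and Cmbl (0.96). Slc6a3 went with Smad9 (0.98), Akr1b8 (0.97) and Xlr3a (0.96), and Maob with Vav3, Tmem74 and Kcns2 (0.98 each). These are the highest of 17839 correlations over 9 points that share a library and its depth, so such values are given as a description.

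Promoter marks were compared next, over the tiles from 1500 bp before to 500 bp after the deposited start, in RPM per 2000 bp tile. In +/+ the promoters fell into 3 states. Maoa and Maob had the most H3K4me3 of the 10 with little H3K27me3, the 4 transporters Slc18a2, Slc6a3, Slc6a2 and Slc6a4 had both marks, and Dbh, Tph2 and the first start of Ddc had little of either.

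**Figure D3:**
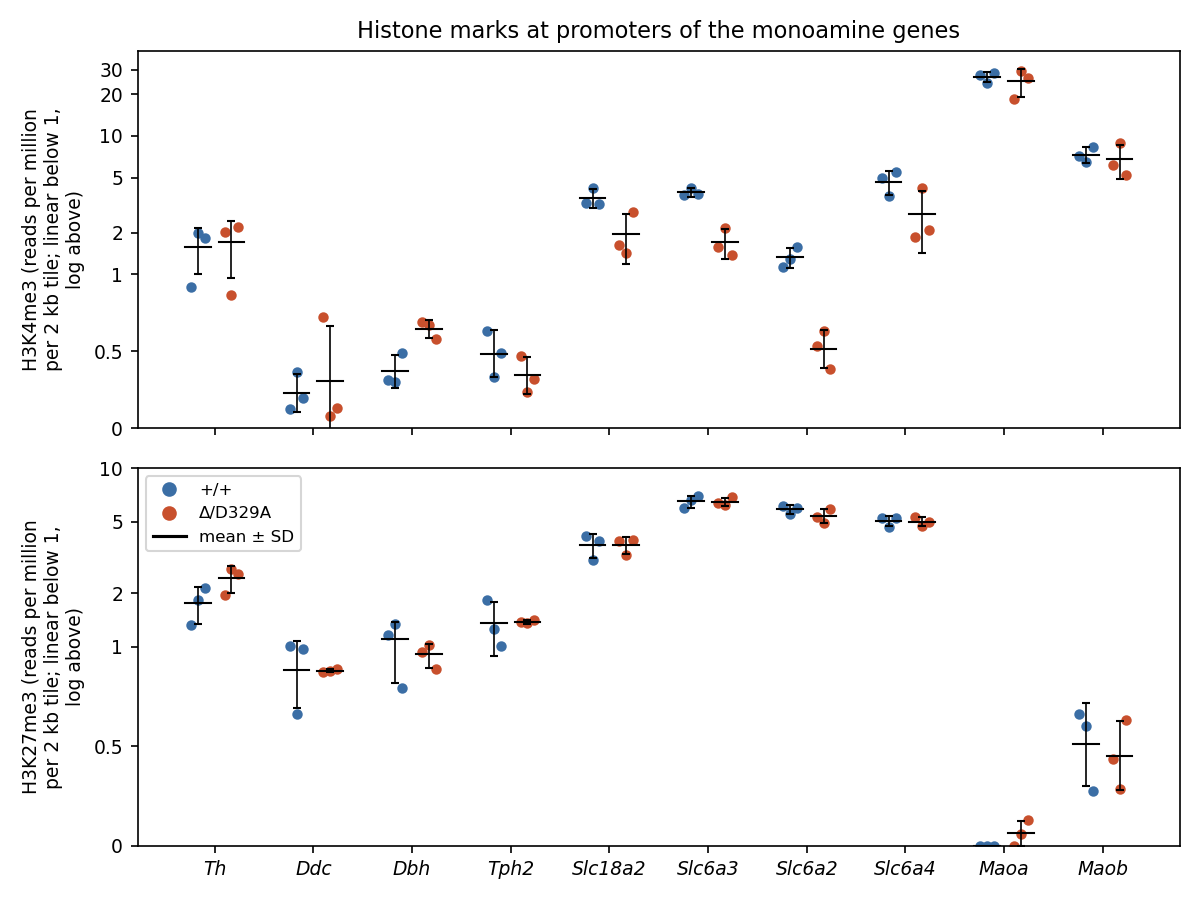
H3K4me3 and H3K27me3 at the 10 promoters, as RPM per 2000 bp tile, with 1 point per animal for 3 +/+ and 3 Δ/D329A animals. Th is shown at its RefSeq start. H3K4me3 points of Δ/D329A sit below those of +/+ at Slc6a2, Slc6a3 and Slc18a2, whereas H3K27me3 points overlap at all 4 transporters.

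H3K27me3 at the transporters was among the highest of the genome. In +/+ animals it read 5.95, 6.63 and 6.94 at Slc6a3, 6.10, 5.52 and 6.0 at Slc6a2, 5.25, 4.68 and 5.23 at Slc6a4, and 4.15, 3.06 and 3.89 at Slc18a2. The means lay at percentiles 99.4, 99.0, 98.3 and 96.4 of 25952 promoters, and were 4.56 to 6.14 times input. Both Slc18a2, expressed at several RPKM, and Slc6a2 and Slc6a4, barely detected in RNA, thus carried the mark, in tissue whose cells were not separated.

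No difference in H3K27me3 was called at any of the 9 promoters tested, against 1.28% of 16966 promoters. Δ/D329A animals read 6.42, 6.19 and 6.88 at Slc6a3, 5.34, 4.95 and 5.94 at Slc6a2, 5.31, 4.76 and 4.98 at Slc6a4, and 3.93, 3.25 and 3.96 at Slc18a2. The log2 differences were 0.00 (SE 0.12), −0.12 (SE 0.13), −0.01 (SE 0.13) and 0.01 (SE 0.16), with limma adjusted p of 0.999, 0.808, 0.988 and 0.991. The 95% intervals ran from −0.39 to 0.15 at Slc6a2 and from −0.32 to 0.34 at Slc18a2.

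H3K4me3 was lower in Δ/D329A at the promoter of Slc6a3. It read 3.73, 4.22 and 3.78 RPM in +/+ and 1.57, 2.17 and 1.39 in Δ/D329A, with no overlap. The log2 difference was −1.17 (SE 0.28), or 0.444-fold, with a limma adjusted p of 0.00365, under the 0.05 used for the marks. It was the only call among the 9 promoters tested, whereas 1.35% of 19907 promoters were called in either direction and 1.10% were called lower.

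The call at Slc6a3 depended on how the data were treated. The log2 difference stayed between −1.35 and −1.01 under every alternative, and the adjusted p was 0.102 after centring each library on its median, 0.277 as a ratio to input, 0.0733 with edgeR on recovered reads, 0.0641 at the RefSeq start, 1.0 with no filter on low promoters, 0.112 without +/+ replicate 2 and 0.0542 without +/+ replicate 3. Without Δ/D329A replicate 1, the library that stood apart, it was −1.12 (adjusted p = 0.00559). In the single tile nearest the start the libraries held 61, 67 and 60 reads in +/+ and 25, 28 and 23 reads in Δ/D329A, and edgeR on the reads of this tile did not call Slc6a3.

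The other 3 transporters had log2 differences of the same sign that did not pass the test. Slc6a2 read 1.14, 1.30 and 1.58 in +/+ and 0.533, 0.631 and 0.387 in Δ/D329A, without overlap (log2 difference −1.23, SE 0.39, limma adjusted p = 0.0928). Slc18a2 read 3.29, 4.22 and 3.22 against 1.63, 1.42 and 2.84, also without overlap (−0.88, SE 0.28, limma adjusted p = 0.0900). Slc6a4 read 4.93, 3.66 and 5.45 against 1.85, 4.22 and 2.1, where Δ/D329A replicate 2 lay inside the +/+ range (−0.83, SE 0.26, limma adjusted p = 0.0823).

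Thus 3 of the 9 promoters tested lay lower in Δ/D329A without overlap, against 4.86% of all promoters tested, and all 3 were transporters. Slc6a2 was called with a window of 1000 bp to either side (−1.69, adjusted p = 0.000461), Slc6a4 without Δ/D329A replicate 2 (−1.19, adjusted p = 0.000413) and Slc18a2 without Δ/D329A replicate 3 (−1.17, adjusted p = 0.0160). The animals left out for Slc6a4 and Slc18a2 held the highest Δ/D329A values, 4.22 and 2.84, so these calls are no support. With no filter, median centring, a ratio to input, RefSeq starts or either edgeR fit, no transporter was called. Mitochondrial coverage of the H3K4me3 libraries ran from 14.8 to 44.6 RPM per tile. With the 3 animals of higher coverage set apart as a block, all 4 transporters were called. In that fit calls over all 19907 promoters rose from 268 to 541. The block, +/+ replicate 3 and Δ/D329A replicates 2 and 3, was taken from these data and divides the genotypes unevenly, so these calls are no support either.

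**Figure D4:**
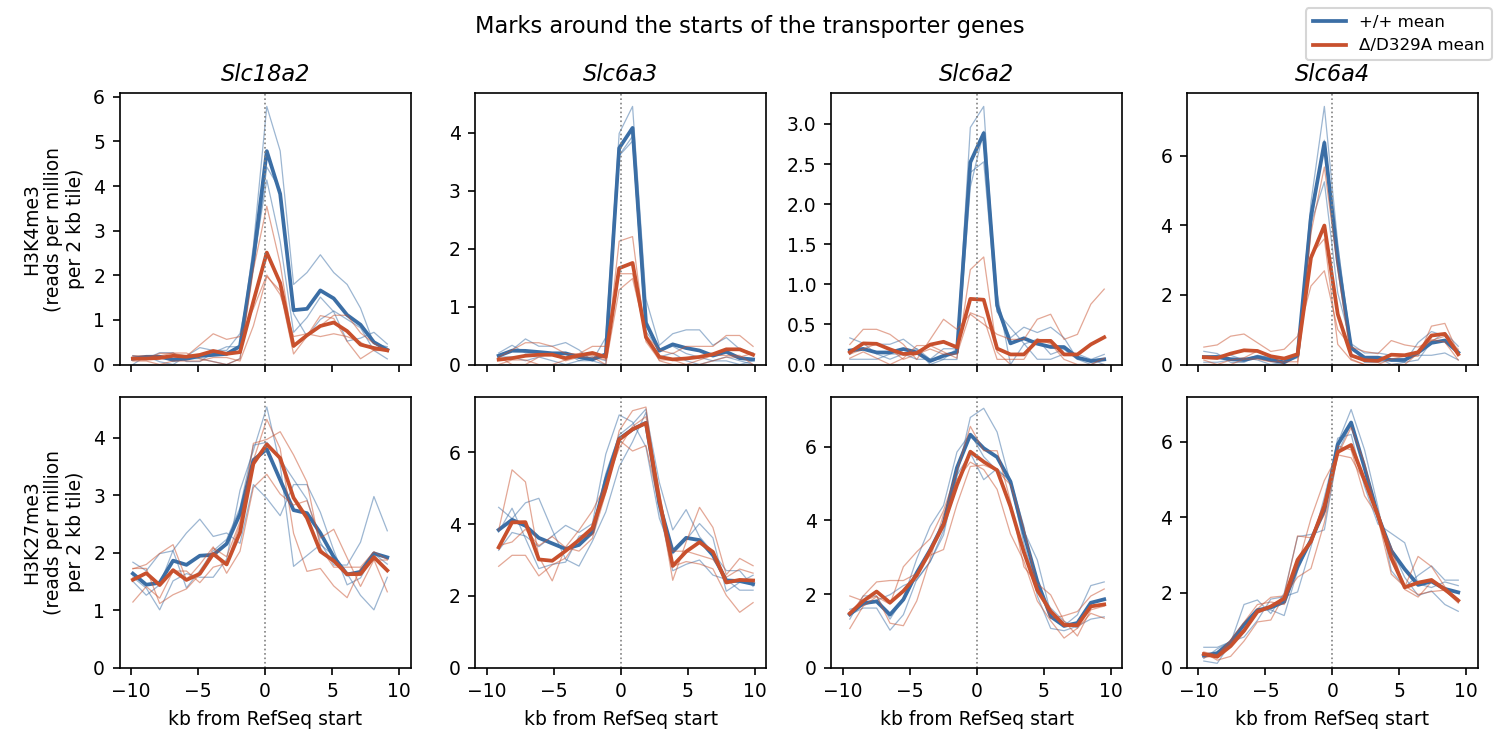
H3K4me3 (top) and H3K27me3 (bottom) in RPM per 2000 bp tile against distance in kb from the RefSeq start of 4 transporter genes. Thin lines are animals and thick lines means of 3 per genotype. The mean H3K4me3 peaks are lower in Δ/D329A. The H3K27me3 curves of the genotypes run close to each other over the same stretches, with somewhat lower mean peaks in Δ/D329A at Slc6a2 and Slc6a4.

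The mean H3K4me3 of the highest tile near the start was 4.09 in +/+ and 1.75 in Δ/D329A at Slc6a3, 2.89 and 0.819 at Slc6a2, 4.78 and 2.51 at Slc18a2, and 6.38 and 4.0 at Slc6a4. The peaks were narrow, and H3K27me3 spread more widely over the same starts. Its highest tile was at 6.82 in +/+ and 6.81 in Δ/D329A for Slc6a3, and at 3.80 and 3.88 for Slc18a2. For Slc6a2 it was at 6.32 and 5.86, and for Slc6a4 at 6.51 and 5.92. The highest H3K4me3 tile was the same in both genotypes at Slc6a3, Slc18a2 and Slc6a4. At Slc6a2 it lay 0.531 kb after the start in +/+ and 0.469 kb before it in Δ/D329A. These tiles overlap and were nearly level in Δ/D329A. The animals read 0.627, 1.18 and 0.645 in the tile before the start and 0.502, 1.34 and 0.581 in the tile after it.

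The difference in H3K4me3 can be set beside that in RNA for the 2 transporters tested in both. Slc6a3 had the lower H3K4me3 of Δ/D329A beside a log2 RNA difference of 1.01 (SE 0.95), and Slc18a2 had −0.88 in H3K4me3 beside −0.62 in RNA. RNA and ChIP came from libraries that the labels do not tie to the same animals, and the sexes differ, so these values stand side by side without a test.

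H3K4me3 was high at Maoa, at the 88.5th percentile of promoters in +/+, and middling at Maob, at the 52.2nd. Maoa, at 27.7, 24.2 and 28.4 in +/+ and 18.5, 29.4 and 26.3 in Δ/D329A, was 52.5 times input in +/+, and the log2 difference was −0.14 (SE 0.20, limma adjusted p = 1.0). Maob read 7.18, 6.45 and 8.38 against 6.21, 8.87 and 5.20 (−0.14, SE 0.23, limma adjusted p = 1.0). The genotypes overlapped at both. Maoa had no H3K27me3 read in any +/+ library and at most 0.127 RPM in Δ/D329A, while Maob had 0.273 to 0.661 in +/+ and 0.286 to 0.635 in Δ/D329A. Both lie on the X chromosome.

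Among the synthesis enzymes, the deposited start of Th lay 31133 bp from the RefSeq start at 142899995, and H3K4me3 there was too low to be tested. At the RefSeq start it read 0.917, 2.0 and 1.84 in +/+ and 2.04, 0.868 and 2.19 in Δ/D329A, a log2 difference of 0.07 (SE 0.31, limma adjusted p = 1.0). H3K27me3 there read 1.32, 1.83 and 2.13 against 1.95, 2.73 and 2.56 (0.45, SE 0.21, limma adjusted p = 0.426). Both marks overlapped between the genotypes. This placement was chosen after the data were seen.

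Ddc showed H3K4me3 at its second start only. At the first start it read 0.126, 0.366 and 0.197 in +/+ and 0.721, 0.0789 and 0.129 in Δ/D329A, and 7736 bp downstream 6.58, 5.99 and 7.19 against 6.15, 6.86 and 9.17. The second start, whose sequence is printed above, carried 0.907 ± 0.209 (SD, n = 3) of H3K27me3 in +/+ and 0.926 ± 0.209 (SD, n = 3) in Δ/D329A. Thus the start in use in this tissue, as far as H3K4me3 shows it, had the genotypes overlapping in both marks.

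Tph2 and Dbh had little H3K4me3. Tph2 read 0.632, 0.333 and 0.493 in +/+ and 0.470, 0.237 and 0.323 in Δ/D329A (−0.40, SE 0.49, limma adjusted p = 1.0). Dbh read 0.316, 0.299 and 0.493 against 0.690, 0.671 and 0.581, higher in Δ/D329A without overlap, as were 1.65% of all promoters tested (0.69, SE 0.46, limma adjusted p = 1.0), and both stood below input. Their H3K27me3 was near input, at 1.60 and 1.18 times input in +/+.

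To see how far the lower H3K4me3 was shared, all promoters were grouped by their mean marks over the 6 animals, with limits set after the data were seen and without a test. Of the 19907 promoters tested, the median log2 difference in H3K4me3 was −0.08. Among the 722 with H3K27me3 of at least 3 and H3K4me3 between 0.5 and 5 RPM, which include all 4 transporters, it was −0.41 with quartiles of −0.82 and −0.05, and 14.3% were called lower. Among the 2675 with the same range of H3K4me3 and less H3K27me3 it was −0.05, and 1.53% were called lower. The transporters, at −1.23 to −0.83, lay below the lower quartile of the promoters that shared both marks. Slc6a4 did so only just, at −0.835 (SE 0.26) against −0.820. Many of these promoters lie below their lower quartile by definition, so this does not set the transporters apart.

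**Figure D5:**
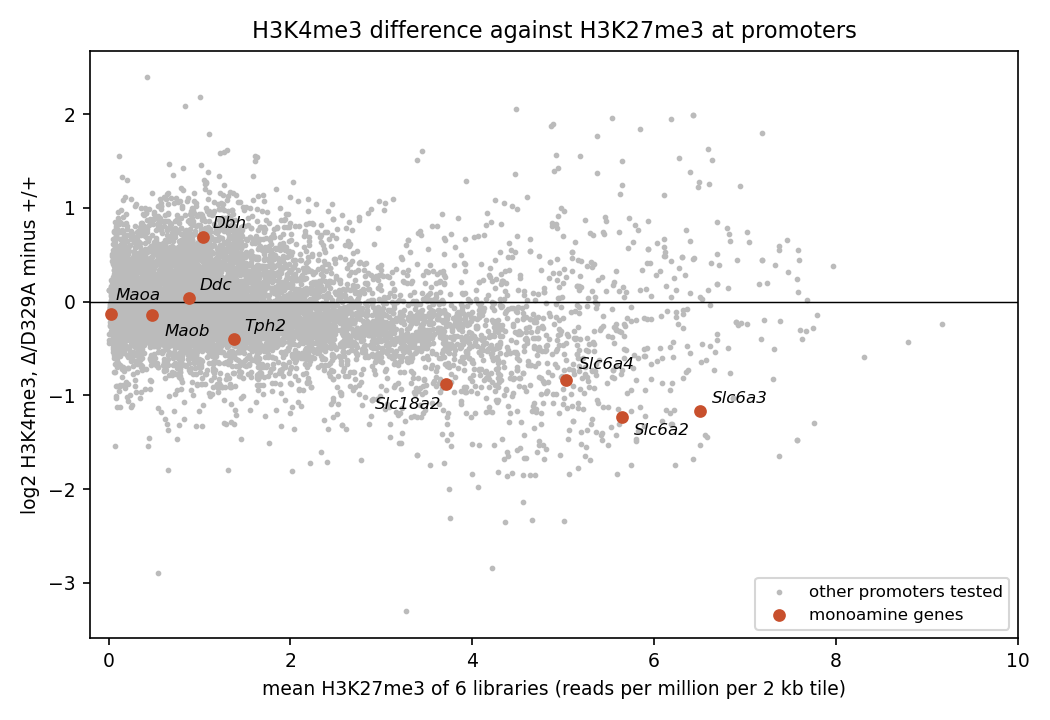
Log2 difference of promoter H3K4me3, Δ/D329A minus +/+, against mean H3K27me3 in RPM per 2000 bp tile, for all promoters tested (grey) and the monoamine genes (coloured, named). The 4 transporters lie at the right between −1.23 and −0.83, and the axis leaves out 9 promoters with H3K27me3 above 10.

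Over gene bodies, taken from 500 bp after the start to the end, H3K27me3 was highest at Slc6a3, at 2.89, 2.38 and 2.81 in +/+ and 2.61, 2.80 and 3.07 in Δ/D329A, the 97.0th percentile. Of the 10 genes 8 were tested and 0 were called, against 0.00655% of 15278 bodies. The genotypes did not overlap at Slc6a4, which read 2.34, 2.25 and 2.23 against 2.04, 2.08 and 2.01 (log2 difference −0.15, SE 0.09, limma adjusted p = 0.616). They also did not overlap at Th (1.37, 1.31 and 1.43 against 1.53, 1.67 and 1.53, log2 difference 0.19, SE 0.10, limma adjusted p = 0.563), where most of the deposited body lies upstream of the RefSeq start. Over the RefSeq body of Th the ranges overlapped. These 2 of 8 bodies compare with 15.8% of all bodies tested whose genotypes did not overlap.

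H3K36me3, the mark of the transcribed body, was called at 0 of the 10 genes, as at 0.00% of 22317 bodies (limma, with 3477 at an unadjusted p under 0.05, and 146 called by edgeR). Slc18a2 carried the most, at 1.04, 1.29 and 1.06 in +/+ and 1.09, 1.06 and 0.984 in Δ/D329A, or the 63.5th percentile, and Dbh the least, at 0.236, 0.348 and 0.343 against 0.4, 0.421 and 0.429. Relative to input the highest was Maoa, at 1.87 times input in +/+ and 1.56 times in Δ/D329A.

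Of the 10, Maoa also had the smallest p for this mark. It read 0.865, 0.851 and 0.791 in +/+ and 0.682, 0.652 and 0.684 in Δ/D329A without overlap, a log2 difference of −0.28 (SE 0.07, limma adjusted p = 0.244), beside a log2 RNA difference of −0.07 in females. Dbh and Slc6a2 did not overlap in the other direction, at 0.35 (SE 0.15, limma adjusted p = 0.321) and 0.17 (SE 0.09, limma adjusted p = 0.397), at levels under 0.64 in every animal. These 3 of 10 bodies without overlap compare with 22.7% of all bodies tested. At Slc6a3 the log2 difference was 0.17 (SE 0.09, limma adjusted p = 0.406), with overlap. With 3 animals against 3 the smallest exact permutation p would be 0.1.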

How the data were processed

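RNA-seq of 9 hypothalami and ChIP-seq of 6 (24 libraries) were analysed. Bisulfite libraries were not analysed here. The authors aligned to GRCm38 and quantified in SeqMonk, and the submitters' processing notes name Trim Galore 0.4.3, HISAT2 2.0.5, Bowtie2 2.3.2 and Bismark 0.19.0. The deposited RNA values are log2 RPKM per gene, made by the authors from reads merged over exons, and a gene without a read stands at 0.9 of a read. The deposited ChIP values are a signal, RPM (reads scaled to library size) in 2000 bp tiles every 1000 bp. The authors left out 1 further Δ/D329A RNA library of low quality.

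Expression was tested with limma 3.58.1 (R 4.3.3) on the deposited log2 values of genes at 0.1 RPKM in at least 4 libraries, without the 13 mitochondrial genes, at a Benjamini-Hochberg adjusted p under 0.01. Marks were averaged over tiles from 1500 bp before to 500 bp after the start, or over the body from 500 bp after the start, and log2(value + 0.1) was tested with limma at an adjusted p under 0.05 where the mean reached 0.2. A log2 difference on that scale understates the change of low regions. Fits ran over all genes or regions and were first tested on simulated data. The pipeline used Python 3.11.15 and scipy 1.17.1.

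Whole reads were recovered from both tables: 100% of RNA genes, within 0.02 of a read or a small relative error (47.4% with the annotated exon length, the rest with the shortest length giving whole reads, Slc18a2 and Slc6a2 among them), and 100% of ChIP tiles within 0.01 of a read. edgeR 4.0.16 and DESeq2 1.42.0 on these reads called 77 and 249 genes. Counting intervals cover counting error only. Each library is 1 animal, and nothing in the labels ties RNA to ChIP animals.

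The members and all lists were chosen with earlier results of these data known. Besides the 10 genes, the text names those of the pathway lists that were called, did not overlap between genotypes or were highest in their list (1 such gene is not reported here), and the 3 genes most like each of Th, Ddc, Slc6a3 and Maob. En2, Fev, En1, Pitx3 and the RefSeq starts were chosen after their values were seen. Columns of no sample used numbered 0.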

Additional observations from a re-analysis of the deposited data

Results flagged for a closer look

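Of 20 groups of libraries (10 genes in 2 genotypes), 4 held a library far from the others for its group. The limit passes about 1 in 20 groups of independent normal values, which these groups do not all meet. Libraries without a read stand at a floor, and Slc6a3 and Slc18a2 varied together (r = 0.83 over the 9 libraries). The 4 of 20 therefore cannot be set against that rate. Slc6a3 stood at −2.01 log2 RPKM (9 reads) and Slc18a2 at 0.91 log2 RPKM (75 reads) in Δ/D329A replicate 2, each far below the other 3 Δ/D329A libraries. That library also had the smallest scaling total, 10519195 reads, and a median over tested genes of 0.906 log2 RPKM. It held the lowest value, not centred by library, of 4 of 8 tested midbrain dopamine markers, whose part in the result was not tested. Dbh stood at −3.04 log2 RPKM (6 reads) in +/+ replicate 1 and Slc6a2 at −4.78 log2 RPKM (3 reads) in +/+ replicate 3, both above the other 4 +/+ libraries, and both rest on a handful of reads.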

How the results depend on the processing

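Of 690 values of single genes under an alternative, 615 kept their direction and their side of the threshold, 58 changed sign, 8 lost a call and 9 gained one. All 8 losses were H3K4me3 at Slc6a3. The number of the 10 genes called for expression was 0, and 2 with DESeq2. The number called for H3K4me3 at promoters was 1. It was 0 with no filter, median centring, a ratio to input, RefSeq starts and edgeR on every second tile or on the tile nearest the start, 2 with 1000 bp to either side, 4 with the mitochondrial block, and 0 to 3 when 1 animal was left out (0 without +/+ replicates 2 or 3, 3 without Δ/D329A replicate 2, 2 without Δ/D329A replicate 3). RefSeq starts and the tile nearest the start were chosen after seeing the data. Over all genes, expression calls went from 19 to 34 (22 higher, 12 lower) with median centring, 32 (16 higher, 16 lower) with quantile normalization, 34 with array weights, 11 at 0.5 RPKM, 77 with edgeR, 76 with its DESeq2 size factors, 249 with DESeq2 and 1 to 19 without 1 library (2, 5, 4 and 1 without Δ/D329A replicates 1, 2, 3 and 4). Over all promoters, H3K4me3 calls went from 268 to 0 (no filter), 69 (centring), 158 (input), 541 (mitochondrial block), 103 and 76 (edgeR, both ways) and 131 to 591 without 1 animal, and H3K27me3 calls from 217 to 0 (no filter), 40 (input), 72 to 455 without 1 animal. Over bodies, H3K27me3 calls went from 1 to 5 (pseudocount 0.5), 2 (no filter), 13 (centring), 3 (without the first 2000 bp), 0 (RefSeq), 29 (edgeR) and 1 to 25 without 1 animal (25 without Δ/D329A replicate 2), and H3K36me3 calls from 0 to 2 (RefSeq) and 146 (edgeR). The causes were not tested, except that no filter and 0.5 RPKM change how many features are tested.

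Signs changed where differences were small, with 1 exception, H3K4me3 at Slc6a2, at 0.67 with edgeR on every second tile, which held 1 to 7 reads a library and missed the peak. In H3K27me3 at promoters, edgeR on every second tile gave −0.0057 for Th, −0.27 for Ddc and −0.085 for Slc18a2, and on the tile nearest the start −0.012, −0.27 and −0.026. Centring gave −0.037 for Ddc and −0.039 for Slc18a2, and the mitochondrial block −0.056 for Th, −0.032 for Ddc and 0.036 for Maob. A ratio to input gave −0.078 for Tph2, 0.11 for Slc6a3, 0.16 for Slc6a4 and −0.17 for Slc18a2, and Dbh was at 0.036 both with 1000 bp to either side and at the RefSeq start. Over bodies, H3K27me3 of Dbh was −0.011 with centring, −0.025 with the mitochondrial block and −0.072 as a ratio to input, and H3K36me3 was 0.029 for Slc6a4 with edgeR and −0.028 for Tph2 as a ratio to input. Leaving out 1 library moved Ddc expression between −0.057 and 0.30, and promoter H3K4me3 between −0.20 and 0.46 for Ddc, −0.28 and 0.058 for Maoa and −0.36 and 0.025 for Maob. For promoter H3K27me3 the ranges were −0.069 to 0.17 (Th), −0.064 to 0.025 (Slc6a4), −0.45 to 0.11 (Maob), −0.17 to 0.11 (Ddc), −0.35 to 0.00079 (Dbh), −0.064 to 0.046 (Slc6a3), −0.12 to 0.10 (Slc18a2) and −0.12 to 0.27 (Tph2). For H3K27me3 over bodies they were −0.043 to 0.042 (Dbh), −0.012 to 0.13 (Slc6a3) and −0.12 to 0.00045 (Slc6a2), and for H3K36me3 −0.068 to 0.052 (Slc6a4), −0.020 to 0.047 (Tph2) and −0.0098 to 0.18 (Ddc).

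Same-numbered libraries shared only a number: their deviations correlated at −0.05 to 0.14 for RNA, −0.22 to 0.22 for H3K4me3, 0.03 to 0.09 and 0.00 to 0.11 for H3K27me3 at promoters and bodies, and 0.02 to 0.04 for H3K36me3. With the replicate number as a block, Ddc expression was −0.057, promoter H3K27me3 calls rose from 217 to 385, and no call among the 10 genes changed. Depth limits Dbh, Tph2, Slc6a2 and Slc6a4, with 10 reads or fewer in every RNA library, and 3 animals a genotype limit the marks.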

Other observations

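Marker lists of other cell types were read in the same libraries. Oligodendrocyte markers summed to 292 to 453 RPKM in +/+ and 204 to 380 RPKM in Δ/D329A, with 0 of 7 called, microglial markers to 19.7 to 39.9 and 24.01 to 39.4 RPKM, with 0 of 6 called, and endothelial markers to 19.95 to 41.8 and 25.7 to 35.6 RPKM, with 0 of 7 called. Anterior pituitary markers ran from 0.933 to 17.4 RPKM in +/+ and from 3.40 to 12.03 RPKM in Δ/D329A, with 0 of 7 called. Striatal markers summed to 33.0 to 59.2 and 32.4 to 42.8 RPKM, with 0 of 7 called. Choroid plexus markers summed to 4.55 to 5.87 and 4.68 to 8.81 RPKM, with 0 of 6 called. Thalamic and habenular markers summed to 52.2 to 90.6 and 60.3 to 85.9 RPKM, with 1 of 8 called, Pou4f1. Mast and melanocytic markers summed to 2.85 to 4.69 and 4.10 to 6.11 RPKM, with 1 of 4 called, Dct. Both calls were higher in Δ/D329A. The paper names Pou4f1 as upregulated and hypermethylated in Δ/D329A hypothalamus, and cell content was not tested.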
